A study of Mus musculus with 8 samples.

Results

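The data described here are the levels of 10 genes of enteroendocrine cells, the hormone-secreting cells scattered through the gut epithelium, in the duodenum of mice without IκBα in that epithelium. The genes were chosen by symbol, with earlier results of these data known: Sct, Cck, Gip, Ghrl, Sst, Gcg, Nts, Tac1, Tph1 and Chga. Each had 1 probe set among the 22206 of the array, of which 19572 carry 1 gene symbol, and all 10 lay above the background level of 5.65. In knockout duodenum Tac1 rose 2.94-fold, while Sct, Gip, Tph1 and Chga fell to between 0.605 and 0.702 times the level of the wild-type siblings. The other 5 genes did not pass the test. Tac1 and Tph1, both genes of enterochromaffin cells, moved in opposite directions, but no test compared them with each other. Tph1 no longer passed on leaving out any 1 pair. In bulk tissue Tac1 can also come from enteric neurons and Tph1 from mast cells.

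Clariom S mouse arrays were hybridised with RNA of 8 mice, 4 knockouts and 4 wild types, paired by the labels as littermate siblings. In the knockouts (Villin-Cre x floxed IκBα) a floxed Nfkbia allele, which encodes IκBα, was recombined by Cre under the villin promoter, which is active in intestinal epithelium. The recombination removes the promoter and the first exons. The knockouts of pairs 1 to 4 were a male of 8 weeks, a female of 11 weeks, a male of 8 weeks and a female of 9 weeks. Their siblings, labelled WT with no further allele named, were a male of 8 weeks, a female of 11 weeks, a female of 8 weeks and a male of 9 weeks, so the siblings of pairs 3 and 4 differ in sex. No mouse was treated. The series text names frozen, homogenized duodenum and the sample labels small intestine, and no isolation of epithelium is given in the sources used here. In such bulk tissue, fewer cells of a type and less RNA per cell cannot be told apart. The arrays had medians from 6.77 to 6.81, and their number limits the precision. The siblings are separate animals.

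Enteroendocrine cells sense the contents of the lumen and release peptides, or in enterochromaffin cells serotonin, into the blood and onto nearby nerves. Each peptide is cut from a precursor and stored in dense granules together with granins such as chromogranin A. NF-κB is a transcription factor that IκBα holds in the cytoplasm, and Nfkbia is one of its own targets. The deleted gene was low in every knockout, at 6.82, 6.65, 7.72 and 6.65 in knockouts of pairs 1 to 4, against 9.75, 9.91, 9.01 and 9.78 in their wild-type siblings. Nfkbia differed by −2.65 ± 0.918 on the log2 scale (SD over 4 pairs, limma adjusted p = 0.0130), least in pair 3, at −1.29. Where its probes lie relative to the deleted part was not analysed here.

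Values are log2 expression values. Differences are knockout minus wild-type sibling, with the SD of the 4 within-pair differences after ±. Adjusted p-values are from limma with the sibling pair as a block, Benjamini-Hochberg adjusted over all probe sets, and a gene is called below 0.05. Over the whole array 5.86% of probe sets were called, 3.16% higher and 2.7% lower in knockouts. Of the 10 genes 1 was called higher and 4 lower. The median difference of the 10 was −0.51, beside −0.02 for all probe sets. The knockout was below its sibling in 4 of 4 pairs for 6 of the 10 genes and above it for 1, beside 17.9% and 16.5% of all probe sets. For the same counts of genes, 6 and 1, all knockout values lay below or above all wild-type values, beside 17.2% and 15.9% of all probe sets. Genes without overlap are necessarily among those counted by pair, so the counts are not separate results. As the 10 genes were chosen with earlier results of these data known, the array-wide shares beside them are a description only. In the deposited values differences between pairs were small: 70.0% of all probe sets, and 1 of the 10 genes, had pair means within 0.05 of each other.

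**Figure D1:**
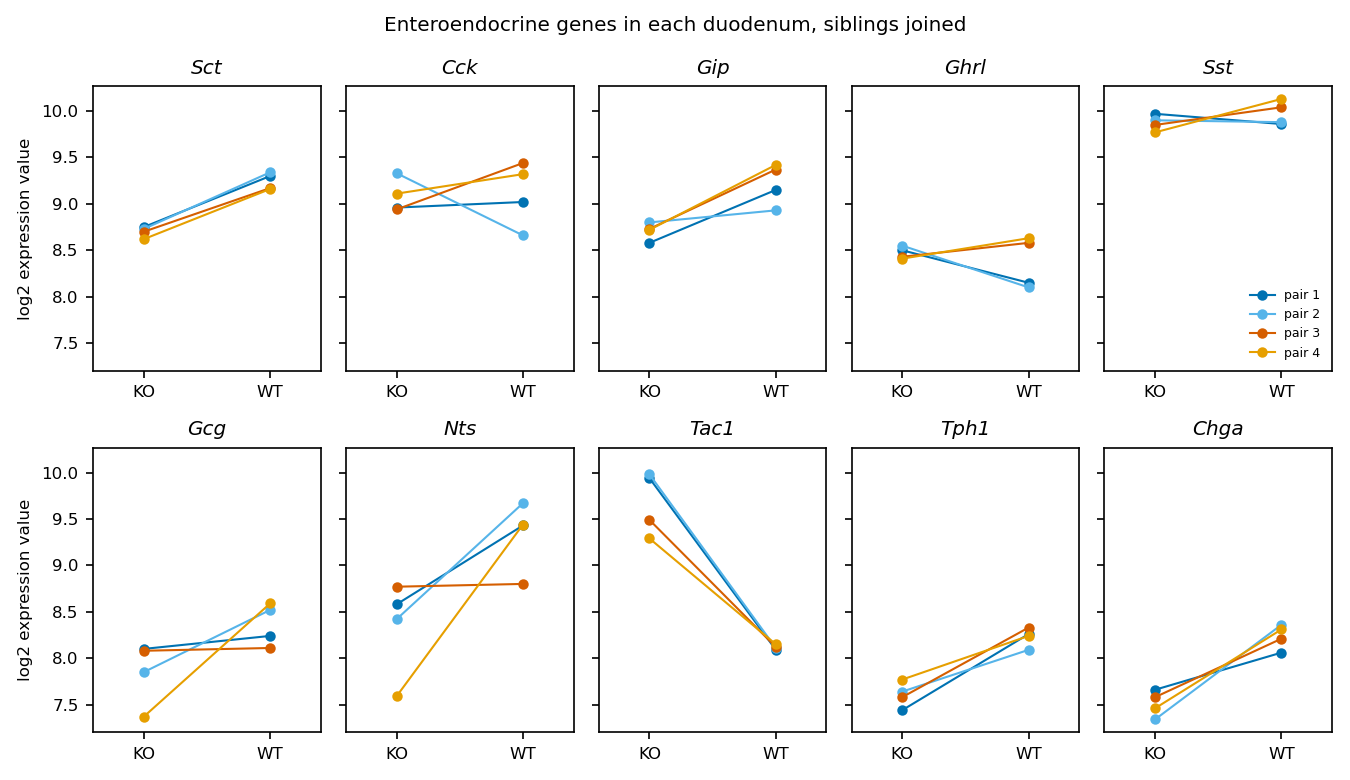
Log2 expression values (vertical axis) of the 10 genes in each of 4 knockout (KO, left) and 4 wild-type (WT, right) mice, with the siblings of a pair joined by a line. Tac1 is higher in all 4 knockouts, the lines of Sct, Gip, Tph1 and Chga all run the other way, and those of Ghrl and Sst cross.

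Tac1 encodes the precursor of substance P and neurokinin A, tachykinins made by enterochromaffin cells and by enteric neurons. Its level was 9.94, 9.98, 9.49 and 9.29 in knockouts of pairs 1 to 4, against 8.09, 8.11, 8.12 and 8.15 in their wild-type siblings. The lowest knockout stood 1.14 above the highest wild type. The difference of 1.56 ± 0.362 was past the threshold (limma adjusted p = 0.00571, 95% interval 1.23 to 1.89), and Tac1 was higher in 4 of 4 pairs. It was called on leaving out any 1 pair, with adjusted p-values from 0.0105 to 0.0273. The difference was larger in pairs 1 and 2 (1.85 and 1.87) than in pairs 3 and 4 (1.37 and 1.14).

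Tph1 encodes tryptophan hydroxylase 1, the rate-limiting enzyme of serotonin synthesis outside the nervous system. Its level was 7.44, 7.64, 7.58 and 7.77 in knockouts of pairs 1 to 4, against 8.26, 8.09, 8.33 and 8.24 in their wild-type siblings. The groups did not overlap. The difference was −0.62 ± 0.19 (limma adjusted p = 0.0214), 0.65 times the wild-type level. Chga encodes chromogranin A, a granule protein of most enteroendocrine cells. Its level was 7.66, 7.34, 7.58 and 7.46 in knockouts, against 8.06, 8.36, 8.21 and 8.31 in wild types. The groups stood apart by 0.40, and the difference was −0.72 ± 0.269 (limma adjusted p = 0.0233), the largest fall among the called genes. On leaving out any 1 pair Tph1 lost its call (adjusted p from 0.0582 to 0.0713), and Chga lost it without pair 2, 3 or 4 (0.0592 to 0.0866). Chga also lost its call with sex in the model (0.053). The fits that left out a pair called 0.919%, 0.653%, 2.07% and 1.08% of all probe sets without pair 1, 2, 3 and 4.

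Of the 7 peptide hormones, 2 fell, 0 rose and 5 were not called. Sct encodes secretin, which stimulates bicarbonate release from the pancreas. Its level was 8.75, 8.73, 8.7 and 8.62 in knockouts of pairs 1 to 4, against 9.3, 9.34, 9.17 and 9.16 in their wild-type siblings. The differences, −0.55, −0.61, −0.47 and −0.54, were the most even of the 10 genes (mean −0.54 ± 0.0574, limma adjusted p = 0.0154). The level was 0.687 times that of wild types. Sct lost its call without pair 1, 2 or 4 (adjusted p = 0.0597, 0.0780 and 0.0587), with differences from −0.57 to −0.52 on leaving out any 1 pair.

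Gip encodes glucose-dependent insulinotropic polypeptide, an incretin of K cells. Its level was 8.58, 8.8, 8.73 and 8.72 in knockouts of pairs 1 to 4, against 9.15, 8.93, 9.37 and 9.42 in their wild-type siblings. The groups stood apart by 0.13, the smallest gap among the called genes, and pair 2 differed least (−0.13). The mean difference of −0.51 ± 0.259 was just inside the threshold (limma adjusted p = 0.0482). Gip lost its call on leaving out any 1 pair (0.0559 to 0.133) and with sex (0.0942) or RNA integrity (0.104) in the model. With a mean of markers as a covariate the Gip difference was −0.13 (mast cell), −0.26 (stomach), −0.31 (acinar), −0.33 (islet) and −0.47 (neuronal). Gip was not called in any of these fits (limma adjusted p from 0.204 to 0.793). The mast cell, stomach and islet covariates were added after seeing the data.

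Nts and Gcg had differences of like or greater size but were not called. Nts encodes neurotensin, and Gcg the proglucagon from which L cells make glucagon-like peptides. Both hormones are known to be more abundant in the distal than in the proximal small intestine. Nts was at 8.58, 8.42, 8.77 and 7.59 in knockouts of pairs 1 to 4, against 9.43, 9.67, 8.8 and 9.44 in their wild-type siblings. Its difference was −1.0 ± 0.763 (limma adjusted p = 0.0750, 95% interval −1.63 to −0.36). The spread came from pair 3, where the siblings differed by −0.03 only, and pair 4, where they differed by −1.85. Gcg was at 8.1, 7.85, 8.08 and 7.37 in knockouts, against 8.24, 8.52, 8.11 and 8.59 in wild types, a difference of −0.52 ± 0.547 (limma adjusted p = 0.153). Pair 3 again differed least (−0.03) and pair 4 most (−1.22). Without pair 3 Nts was called (−1.32, adjusted p = 0.0340), and Gcg was not (−0.68, adjusted p = 0.138). Nts was also called with sex or RNA integrity in the model (0.0192 and 0.0489), in fits that called 2.09% and 1.64% of all probe sets. A fit without the pair block called both genes, but also 34.4% of all probe sets, and is not read as support.

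Cck, Ghrl and Sst had overlapping groups. Cck encodes cholecystokinin of I cells, which drives gallbladder contraction and pancreatic enzyme release. It was at 8.96, 9.33, 8.94 and 9.11 in knockouts of pairs 1 to 4, against 9.02, 8.66, 9.44 and 9.32 in their wild-type siblings. Pair 2 went up by 0.67 and pair 3 down by 0.50, and the mean difference was −0.03 ± 0.498 (limma adjusted p = 0.946, 95% interval −0.46 to 0.41). Its sign turned in 8 of 20 other settings. Ghrl encodes ghrelin, a hormone mainly of the stomach and also of the duodenum. It was at 8.5, 8.55, 8.43 and 8.41 in knockouts, against 8.15, 8.1, 8.58 and 8.63 in wild types. It was higher in the knockouts of pairs 1 and 2 and lower in those of pairs 3 and 4 (mean 0.11 ± 0.341, limma adjusted p = 0.638, 95% interval −0.21 to 0.42). Sst encodes somatostatin, the inhibitory peptide of D cells. It was at 9.97, 9.9, 9.85 and 9.77 in knockouts, against 9.86, 9.88, 10.04 and 10.13 in wild types, and its pairs split as those of Ghrl did (mean −0.1 ± 0.211, limma adjusted p = 0.522, 95% interval −0.34 to 0.13). The interval of Cck includes a fall nearly as large as that of Sct.

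**Figure D2:**
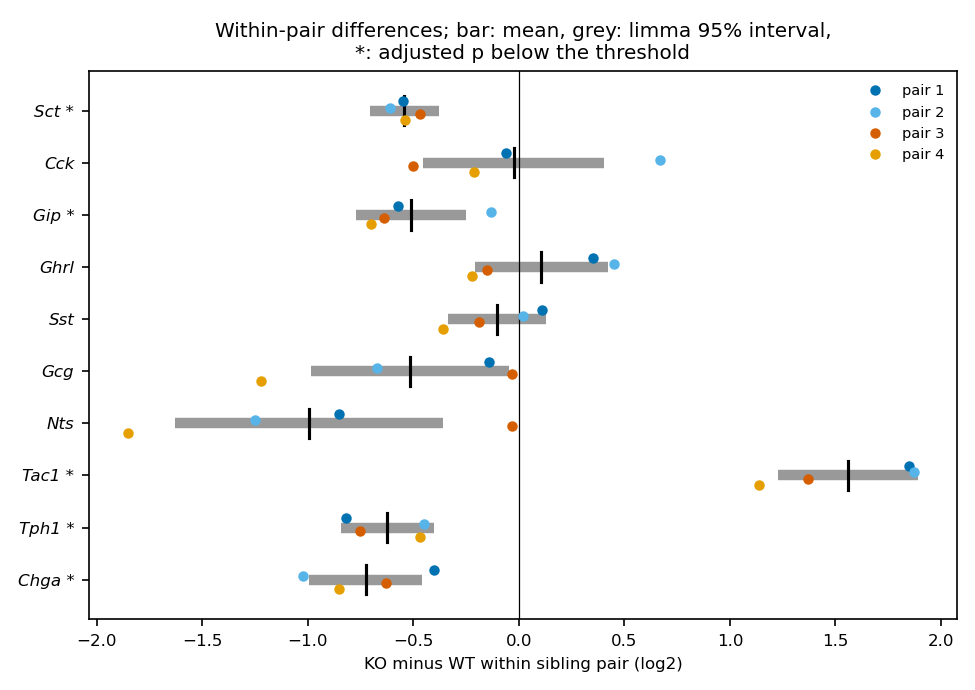
Difference between knockout and wild-type sibling (horizontal axis, log2) for the 10 genes, with points for pairs 1 to 4, a black bar for the mean and a grey band for limma's 95% interval. The bands of Tac1, Sct, Gip, Tph1, Chga, Nts and Gcg lie off 0, the last of these narrowly, and those of Cck, Ghrl and Sst include it.

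The peptide hormones were set against the enterochromaffin genes Tac1 and Tph1 within each pair, as the difference of 1 gene minus that of the other. The 14 comparisons were tested by exact sign flips over 4 pairs, two-sided, which can give no p below 0.13 (1 in 8). They compare changes on the log2 scale, not levels. The change of Tac1 exceeded that of each of the 7 hormones in 4 of 4 pairs. The excess ran from 1.45 ± 0.0739 over Ghrl to 2.55 ± 0.788 over Nts (SD, n = 4 pairs), and each had the smallest exact p of 0.13 (0.175 adjusted over the 14). It was 2.1 ± 0.399 over Sct. Ghrl thus kept the most even distance to Tac1, with 1.5, 1.42, 1.52 and 1.36 in pairs 1 to 4.

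Tph1 did not share the excess of Tac1. Its change was below those of Cck, Ghrl and Sst in 4 of 4 pairs, by −0.60 ± 0.422, −0.73 ± 0.396 and −0.52 ± 0.337 (exact p = 0.13 each, 0.175 adjusted, n = 4 pairs). Against Sct, Gip, Gcg and Nts the sign differed between pairs. The mean was −0.08 ± 0.228 against Sct (exact p = 0.5) and −0.11 ± 0.244 against Gip (exact p = 0.375, n = 4 pairs). It was −0.11 ± 0.718 against Gcg (exact p = 1.0) and 0.37 ± 0.914 against Nts (exact p = 0.375, n = 4 pairs).

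**Figure D3:**
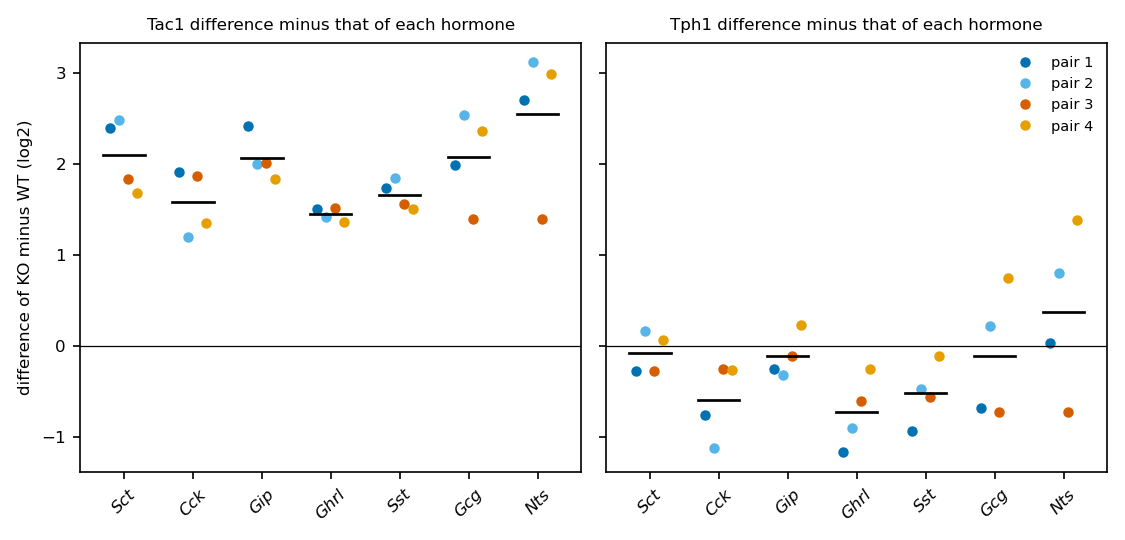
Within-pair change of Tac1 (left) and of Tph1 (right) minus the change of each of 7 peptide hormones (vertical axis, log2), with points for pairs 1 to 4 and a bar for the mean. All points of Tac1 lie above 0, from 1.2 to 3.12, and those of Tph1 lie on both sides.

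The upstream sequences of the called genes are shown here because they moved in opposite directions. They are the 250 bases before the RefSeq start (GRCm38.p6), 5′ to 3′ on the gene's strand. RefSeq promoters were found for 10 of 10 genes, with 14 start sites in all. Capitals mark the half-site of the cyclic AMP response element, TGACG or its reverse complement CGTCA. Tac1 is at chr6:7554811-7555060 on the + strand. Of 2 start sites of Tph1, the one further downstream is at chr7:46667378-46667627 on the − strand. Chga is at chr12:102554691-102554940 (+), Sct at chr7:141279134-141279383 (−) and Gip at chr11:96024295-96024544 (+).
Tac1: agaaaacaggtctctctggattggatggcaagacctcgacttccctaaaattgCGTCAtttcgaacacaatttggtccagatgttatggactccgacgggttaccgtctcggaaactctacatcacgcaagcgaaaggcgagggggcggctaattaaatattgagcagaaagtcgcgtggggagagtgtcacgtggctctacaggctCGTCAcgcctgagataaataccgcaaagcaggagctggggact
Tph1: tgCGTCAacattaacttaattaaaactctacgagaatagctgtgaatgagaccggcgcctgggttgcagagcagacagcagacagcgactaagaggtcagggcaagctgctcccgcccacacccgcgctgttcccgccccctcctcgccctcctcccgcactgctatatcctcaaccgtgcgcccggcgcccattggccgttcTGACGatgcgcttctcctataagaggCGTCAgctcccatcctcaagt
Chga: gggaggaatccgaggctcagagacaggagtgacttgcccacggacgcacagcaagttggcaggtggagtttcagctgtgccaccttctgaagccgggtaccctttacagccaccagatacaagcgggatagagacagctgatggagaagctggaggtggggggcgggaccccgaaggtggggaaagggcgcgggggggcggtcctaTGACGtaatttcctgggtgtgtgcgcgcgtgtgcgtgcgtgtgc
Sct: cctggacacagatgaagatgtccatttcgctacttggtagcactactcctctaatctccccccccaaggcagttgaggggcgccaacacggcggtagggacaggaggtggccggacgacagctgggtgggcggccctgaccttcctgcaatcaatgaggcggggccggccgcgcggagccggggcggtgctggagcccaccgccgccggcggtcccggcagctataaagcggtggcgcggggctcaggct
Gip: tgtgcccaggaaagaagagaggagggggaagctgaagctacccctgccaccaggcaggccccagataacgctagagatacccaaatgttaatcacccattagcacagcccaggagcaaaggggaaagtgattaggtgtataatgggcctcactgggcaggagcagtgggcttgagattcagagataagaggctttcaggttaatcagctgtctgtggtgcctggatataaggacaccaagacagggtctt
A half-site was found in the window of 6 of the 10 genes, among them Tac1, Tph1 and Chga but neither Sct nor Gip. It is present in 17.8% of 32851 RefSeq promoter windows of this length. In Tac1 one begins 43 bases before the start, in Chga 44, in this window of Tph1 47, in Cck 47 and in Sst 48. Within 50 bases of the start, a distance picked after these positions were seen, 5 of the 10 genes and 5.88% of all windows hold a half-site. The 2 half-sites of Sst overlap and form the full element TGACGTCA, found in 1.55% of windows. The NF-κB consensus was found on neither strand in any of the 14 windows, against 7.25% of all windows. E-boxes (CANNTG) were found in 10 of the 14 windows and in 66.2% of all windows. Per window, the half-site was found in 7 of the 14, and in 6 of the 14 within 50 bases of the start.

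Other genes of enterochromaffin cells are given beside them. Of 11 measured beside Tac1 and Tph1, 0 were called in limma's fit, with adjusted p-values from 0.0610 to 0.963 and a median difference of −0.08. Among 14 genes of serotonin handling measured beside Tph1, Maob and Maoa were lower and 0 were higher. They encode the monoamine oxidases, which break down amines, and Maoa is the main one for serotonin. Maob differed by −1.61, −1.62, −0.46 and −2.42 in pairs 1 to 4 (mean −1.53 ± 0.806, limma adjusted p = 0.0337) and Maoa by −0.56 ± 0.233 (adjusted p = 0.0337). Pair 3 had the smallest difference of both. Of the 3 called genes of the list, Tph1 included, 0 were called without pair 1, 2 or 4. Both genes are also expressed in enterocytes. The serotonin transporter gene Slc6a4, chosen after its values were seen, differed by −0.92, −0.28, 0.35 and 0.35 in pairs 1 to 4.

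Of 21 genes of granins, prohormone processing and granule traffic, 2 were lower and 0 higher, with a median of −0.1. Scg2, which encodes secretogranin II, differed by −0.52 ± 0.208 (limma adjusted p = 0.0338), and Resp18, which encodes a protein of endocrine granules, by −0.43 ± 0.186 (adjusted p = 0.0465). All differences of both were negative. The calls were not stable: the list held 0 called genes with sex or RNA integrity in the model and without pair 1, 2 or 4, and 1 without pair 3 or after quantile normalization. Chgb, the gene of chromogranin B, was chosen after its values were seen. It differed by −0.31 ± 0.107 and missed the threshold (adjusted p = 0.0610). Among 15 other gut peptide genes only Adm was called. It encodes adrenomedullin, a vasodilator peptide made by many cell types, and rose by 0.90 ± 0.221 (limma adjusted p = 0.0108). Without pair 2 the list held 0 called genes. Pyy, the L-cell peptide made beside proglucagon, was also chosen after its values were seen and differed by −0.31 ± 0.434 (adjusted p = 0.267).

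Of 20 enteroendocrine transcription factors 1 was lower and 0 higher, with a median of −0.07. Rfx6, a regulator of enteroendocrine and islet development, differed by −0.4 ± 0.14 (limma adjusted p = 0.0429). It averaged 4.9 in knockouts and 5.3 in wild types, below the background level. The list held 0 called genes with sex or RNA integrity in the model, after quantile normalization and on leaving out any 1 pair. Neurog3, which starts the lineage, was chosen after its values were seen and differed by −0.06 (adjusted p = 0.578).

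**Figure D4:**
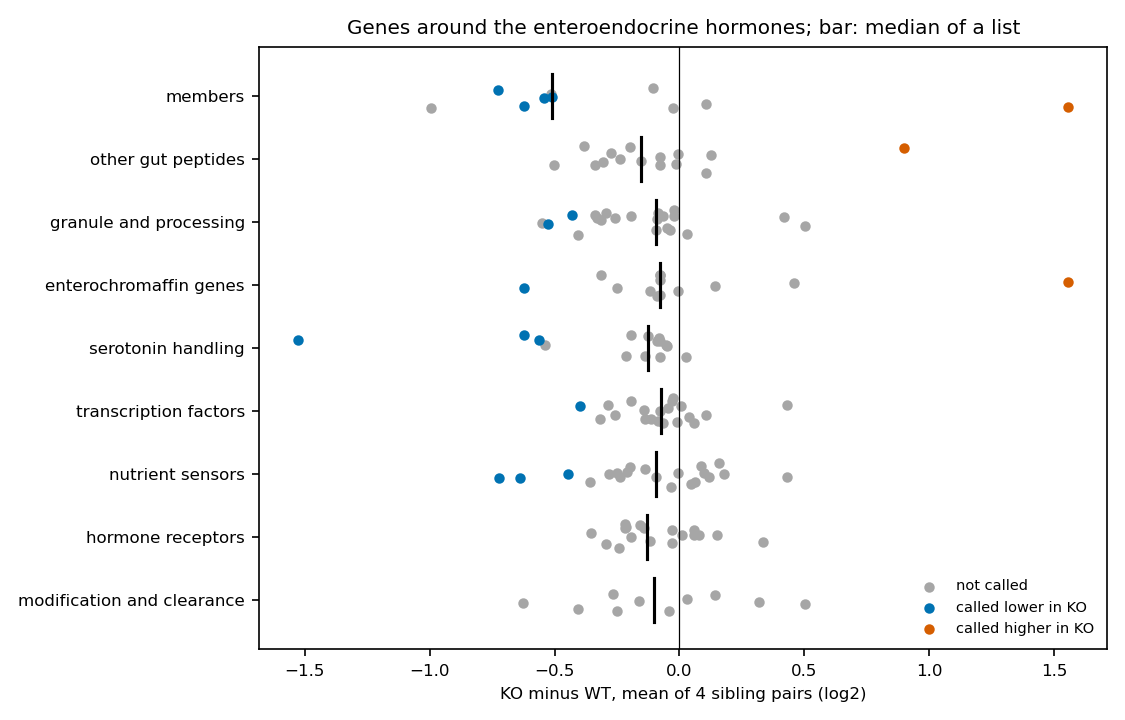
Mean knockout minus wild-type difference over 4 sibling pairs (horizontal axis, log2) for genes of 9 lists, with a black bar for each list's median and colour for the limma call. The medians of the 8 lists besides the 10 genes lie between −0.16 and −0.07, that of the 10 genes at −0.51, and Tac1 lies furthest right.

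Markers of other tissues moved within the same pairs, and their part in the results was not tested. The fits with a marker mean as a covariate leave 2 residual degrees of freedom and are given as values only. Substance P is also made by enteric neurons. Of 20 neuronal markers 0 were higher and 1 was lower, Syt1, with a median of −0.08. Their summed level was 10.94 to 11.06 in knockouts and 11.07 to 11.16 in wild types, and 14 of 20 lay above background. The 20 differences ran from −0.5 to 0.33. In 4 of 4 pairs 5 markers were lower and 1 higher, beside 17.9% and 16.5% of all probe sets. Vip, the lowest, differed by −0.5 ± 0.401 (limma adjusted p = 0.0943), and Ret, the highest, by 0.33 (adjusted p = 0.0752). Nos1 differed by −0.32 ± 0.225 and lay below the background level in both groups. With the neuronal mean as a covariate Tac1 differed by 1.90 and was not called (limma adjusted p = 0.626), in a fit that called 0% of all probe sets.

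Tph1 is also expressed by mouse mast cells. Of 12 mast cell markers 4 were lower and 0 higher. Mcpt1, which encodes a mucosal mast cell protease, differed by −2.47 ± 0.832, Mcpt2 by −1.19 ± 0.615, Cpa3 by −1.17 ± 0.659 and Kit by −0.78 ± 0.291 (limma adjusted p-values 0.0129, 0.0337, 0.0411 and 0.0223). The summed level of the 12 was 9.13 to 9.36 in knockouts and 9.79 to 10.2 in wild types, and 7 of 12 lay above background. Mcpt1 and Cpa3 averaged 4.72 and 4.82 in knockouts, below background. The medians of the 12 were −0.265, −0.19, −0.44 and −0.445 in pairs 1 to 4. Tph1 differed by −0.82, −0.45, −0.75 and −0.47. With the mast cell mean as a covariate Tph1 differed by −0.69 but was not called (limma adjusted p = 0.207), in a fit that called 0.995% of all probe sets. The part of mast cells in the Tph1 difference was not tested.

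Ghrl and Sst are also stomach genes, and Sst, Gcg and Chga are islet genes. Of 13 stomach markers 2 were lower, Muc5ac and Pgc, and 0 higher. Gkn2, a gastrokine, differed by −1.27, −1.14, −5.16 and −5.41 in pairs 1 to 4, and Tff1, a gastric trefoil factor, by −0.9, −0.69, −4.91 and −4.84. The summed level of the 13 was 9.02 to 9.89 in knockouts and 10.4 to 12.4 in wild types, and 9 of 13 lay above background. The medians of the 13 were −0.47, −0.35, −0.74 and −0.81 in pairs 1 to 4. In 4 of 4 pairs 10 of the 13 were lower, beside 17.9% of all probe sets. Ghrl and Sst were lower in the knockout only in pairs 3 and 4, where Gkn2 and Tff1 differed most. The siblings of pairs 3 and 4 also differ in sex, and what carries the split was not tested. The same pairs differed in pancreatic acinar genes, whose medians were −0.27, 0.06, −3.24 and −3.3 in pairs 1 to 4 (15 genes, 1 lower, Clps, and 0 higher). The summed acinar level was 13.9 to 14.3 in knockouts and 14.4 to 15.2 in wild types. Of 9 islet markers 1 was lower, Nkx6-1, and 0 higher. The insulin gene Ins2 differed by 0.07 ± 0.226, and Ins1 was not analysed here. The summed islet level was 11.4 to 12.7 in knockouts and 11.1 to 12.2 in wild types, carried by Slc2a2, which enterocytes express too, and 5 of 9 lay above background.

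Hormone genes also vary along the gut, so markers of position were set beside Nts and Gcg. Pdx1, a duodenal transcription factor, and Cybrd1, the duodenal ferric reductase, were chosen after their values were seen. Pdx1 differed by −0.07, 1.9, 1.76 and 2.03 in pairs 1 to 4 and Cybrd1 by 0.05, 3.7, 1.26 and 1.78. Both markers were higher in the knockouts of pairs 2, 3 and 4 and near 0 difference in pair 1. Osr2, the lowest of 7 distal markers, differed by −0.4, −0.96, 0.27 and −2.05. The medians of the 7 were 0.02, −0.05, 0.03 and −0.15 in pairs 1 to 4, beside −0.85, −1.25, −0.03 and −1.85 for Nts. Of 8 proximal markers 1 was higher, Slc40a1, and 2 were lower, Lct and Cyp2b10. The 8 differences ran from −2.84 to 1.75, with medians of −0.01, 1.415, 0.475 and 1.045 in pairs 1 to 4. Of 7 distal markers Fabp6 was higher (0.41 ± 0.0529) and 0 were lower. The summed proximal level was 14.2 to 14.6 in knockouts and 14.1 to 14.7 in wild types, and the summed distal level was 13.2 to 13.7 in knockouts and 13.4 to 13.8 in wild types. Whether position along the duodenum carries the differences of Nts and Gcg was not tested.

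The tissue itself carried its defining genes. Of 12 epithelial markers 12 lay above background, 1 was higher (Elf3) and 0 were lower, and their summed level was 16.11 to 16.17 in knockouts and 16.2 to 16.22 in wild types. Of 22 enteroendocrine markers, which include the 10 genes, 19 lay above background, 5 were lower and 1 higher, with a median of −0.32. Of the 12 outside the 10 genes 1 was lower, Rfx6, and 0 were higher, with a median of −0.31. Of 7 enteric glia markers 1 was lower (Erbb3) and 0 higher. Of 10 smooth muscle, 10 tuft cell and 9 adipose markers 0 were called in limma's fit, with smallest adjusted p-values of 0.233, 0.0748 and 0.0778. The smooth muscle medians were 0.255, 0.065, −0.475 and −0.615 in pairs 1 to 4, and the part of muscle in the results was not tested. The adipose medians were 2.08, 1.64, 0.19 and −0.11 in pairs 1 to 4, high in the pairs where Tac1 differed most, and the part of adipose tissue in that was not tested. Of 10 housekeeping genes 1 was higher (Gusb) and 0 lower, with a median of 0.2.

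**Figure D5:**
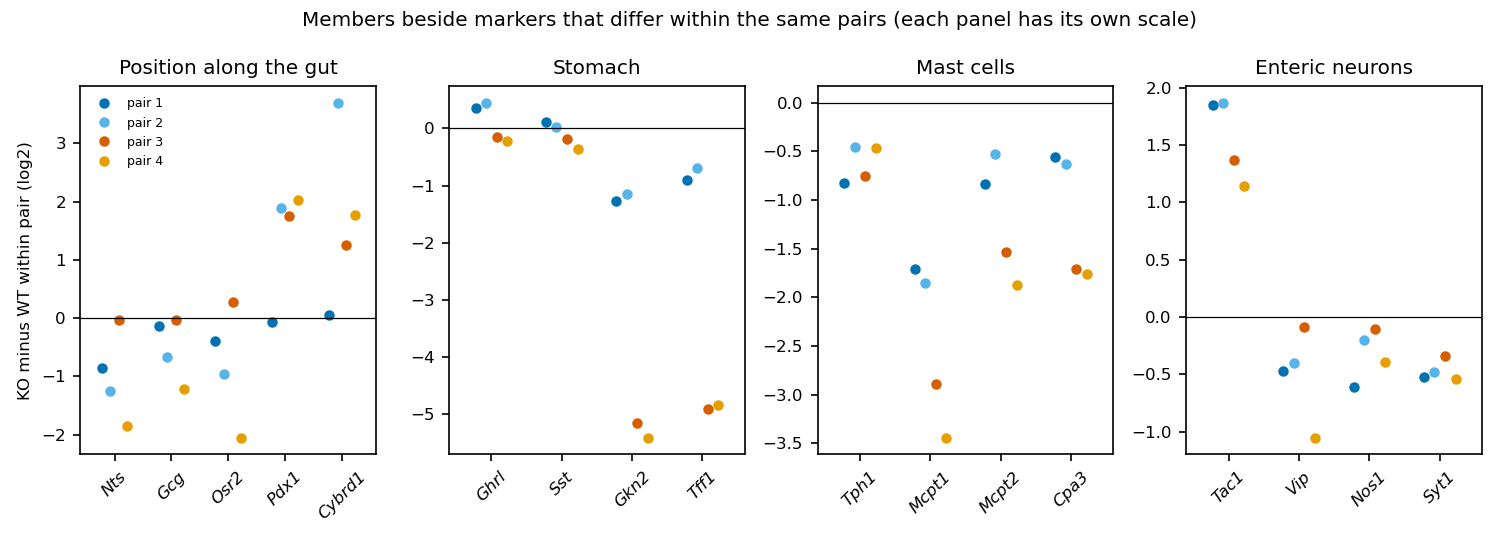
Knockout minus wild-type difference in each pair (vertical axis, log2, scaled separately by panel) for members of the hormone set beside markers of gut position, stomach, mast cells and enteric neurons. Gkn2 and Tff1 split pairs 3 and 4 from pairs 1 and 2, whereas the medians of 13 stomach markers were −0.47, −0.35, −0.74 and −0.81. The mast cell genes drawn, Mcpt1, Mcpt2 and Cpa3, are negative in all 4 pairs. So were 7 of 12 mast cell markers (median −0.37), beside 17.9% of all probe sets. The 3 neuronal genes drawn, Vip, Nos1 and Syt1, are negative in all 4 pairs, as were 5 of the 20 neuronal markers (median −0.08). Pdx1 and Cybrd1 were picked from 8 proximal markers, of which 1 was called higher and 2 lower. Osr2 is the lowest of 7 distal markers (median −0.02).

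For each called gene the genes with the most similar 4 within-pair differences, by Euclidean distance, were found among 18511 other named probe sets. Nearest to Tac1 were Lgals12, Clca3a2 and Fam162a, at distances of 0.465, 0.485 and 0.557. Nearest to Tph1 were Gstk1, Adh7 and Slc25a13 (0.138, 0.194 and 0.221). Nearest to Sct were Rtn4r, Sowahc and Hhipl1 (0.115 to 0.134). Nearest to Gip were Dmp1, Rragd and Gpr39 (0.199, 0.202 and 0.206), and nearest to Chga Pecr, Mettl7b and Tmem86b (0.131, 0.225 and 0.244). With 4 values per gene such neighbours are a description only. Tac1 had no neighbour as close as those of the other 4. The distance is not scaled to the size of a change, which was largest for Tac1.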

How the data were processed

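RNA of 8 duodena was measured on Clariom S arrays. Each deposited value is on a log2 scale, 1 per probe set, and was made by the authors with RMA and Transcriptome Analysis Console 4.0, per the submitters' processing notes. No label or header names a genome build. Pairing comes from the labels. Siblings' deviations from their group means had correlations of −0.913 to −0.870 over all probe sets, as when pair means are removed, a step that no source used here records. Differences of pairs 1 and 2 (r = 0.682) and of pairs 3 and 4 (0.673) were alike. The fit takes them as independent, so its p-values may be too small.

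Limma 3.58.1 (R 4.3.3) fitted genotype with the sibling pair as a block, as the series design sets each knockout against its sibling, with a threshold of 0.05. The fit was tested on simulated data, where 5.63% of 22006 unchanged probe sets had an unadjusted limma p below 0.05. The simulated noise was independent between pairs, so that test does not bear on the likeness of pairs. The background level is the 95th percentile of the means of 1091 olfactory receptor probe sets. Symbols came from the platform table (2634 probe sets unnamed here), and the probe set with the highest mean stood for a gene. A summed level is the log2 of summed linear values.

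Named genes are the 10 members, Nfkbia, up to 4 called genes of each of 8 pathway lists (or, where no member passed, its 2 largest differences), the 2 with the largest change and a few fixed genes of each of 14 marker lists, and 3 neighbours of each called member. Further genes, among them called markers, were chosen after their values were seen. Members and lists were chosen with earlier results of these data known. Alternatives were no block, sex or RNA integrity as terms, other normalization, centring, variance and filters, marker means as covariates and fewer pairs. Islet, mast cell and stomach covariates were added after seeing the data.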

Additional observations from a re-analysis of the deposited data

How the results depend on the processing

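Under the 20 other settings the sign was unchanged for Tac1 (1.26 to 2.26), Sct, Gip, Tph1 and Chga. The calls were less stable. Against 4 members lower, 6 were lower with no replicate block or centred on housekeeping genes. With sex 3 were (Sct, Tph1 and Nts, not Gip or Chga) and with RNA integrity 4 (Sct, Tph1, Chga and Nts, not Gip). With the acinar mean 1 was lower, with the neuronal, islet, mast cell or stomach mean 0, and from pairs 1 and 2 or pairs 3 and 4 alone 0. Leaving out 1 pair gave 0 to 2. Against 1 member higher, 0 were called with the neuronal or islet mean and from pairs 1 and 2 or pairs 3 and 4 alone. A covariate leaves 2 residual degrees of freedom. Against 1301 probe sets called, limma called 7648 with no replicate block, 6231 centred on housekeeping genes, 1997 with trend and robust variance, 744 with the acinar, 519 with the stomach, 221 with the mast cell and 13 with the islet mean. Limma called 464 with sex and 364 with RNA integrity, 145 to 459 without 1 pair, 26 from pairs 3 and 4, and 0 with the neuronal mean or from pairs 1 and 2 (at unadjusted p under 0.05, 1765 and 5278). After housekeeping centring the array-wide median was −0.19, against −0.02 before, and 7.96% of calls were higher in knockouts, against 54.0%.

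Genes that were not called changed sign in places. Cck was 0.025 with RNA integrity, 0.38 with the acinar, 0.39 with the islet, 0.68 with the mast cell and 0.49 with the stomach mean, 0.30 from pairs 1 and 2, and −0.26 to 0.13 without 1 pair. Ghrl was −0.069 centred on housekeeping genes, −0.18 from pairs 3 and 4 and −0.0067 to 0.22 without 1 pair. Sst was 0.077, 0.14, 0.29 and 0.14 with the acinar, neuronal, mast cell and stomach mean, and 0.065 from pairs 1 and 2. With the neuronal mean Gcg was 0.48 and Nts 0.29. In pairs 3 and 4 Tph1 minus Gip was 0.06 and Tph1 minus Gcg 0.015, and without 1 pair Tph1 minus Gcg ran from −0.39 to 0.10. The 3 called nutrient sensors became 1 with sex, 0 with RNA integrity and 0 to 1 without 1 pair. The cause of these changes was not tested.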

Other observations

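Receptors of the hormones were measured in the same duodena. Of 18 receptor genes 0 were called in limma's fit, with a median difference of −0.13 and adjusted p-values from 0.0706 to 0.952, and 7 of 18 lay above the background level. The largest differences were those of tachykinin receptors. Tacr2, the receptor that prefers neurokinin A, differed by −0.35 ± 0.188 (limma adjusted p = 0.0706) and averaged 5.39 in knockouts and 5.74 in wild types, close to background. It was lower in 4 of 4 pairs. Tacr1, the receptor of substance P, differed by 0.33 ± 0.284 (adjusted p = 0.131). Of 10 enzymes that modify or clear the hormones 0 were called. Mme, which encodes the peptidase neprilysin, differed by −0.28, −0.28, −0.36 and −1.59 in pairs 1 to 4, and Cpe, which trims prohormones, by 0.38, 0.73, 0.07 and 0.83.

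Among 21 nutrient sensors 3 were lower and 0 higher, but 1 was called with sex in the model, and 0 with RNA integrity or without pair 1, 2 or 4. Slc15a1, the di- and tripeptide transporter also of enterocytes, differed by −0.72 ± 0.382 (limma adjusted p = 0.0418), the adhesion receptor gene Adgrd1 by −0.64 ± 0.194 (adjusted p = 0.0206) and Asic5, a bile acid-sensitive channel, by −0.45 ± 0.214 (adjusted p = 0.0498). Asic5 averaged 3.78 in knockouts and 4.23 in wild types, below the background level.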
